A study of Mus musculus with 4 samples.

Results

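Naive pluripotency transcription factors are 10 genes whose proteins hold mouse embryonic stem cells in the naive state: Nanog, Klf2, Klf4, Klf5, Esrrb, Tbx3, Tfcp2l1, Prdm14, Zfp42 and Nr0b1. They were picked by name from the 26130 genes listed in both expression tables. For 9 the current gene symbol matched, and Tfcp2l1 was listed under its older symbol Tcfcp2l1. The study sequenced mRNA of mouse embryonic stem cells of 2 lines, E14 (strain 129P2/OlaHsd) and JB1 (JF1/B6), each as wild type and as Zfp57-/-, with 1 library for each of the 4 groups. ZFP57 is a KRAB zinc finger protein that keeps the methylated copy of imprinting control regions methylated. All groups grew without feeder cells on gelatin, in medium with serum and leukemia inhibitory factor (LIF). Which part of Zfp57 was deleted and how the cells were made is not in the labels, nor whether a knockout was 1 clone. Because no group had a second library, the knockout difference within a line has no replicate check, and intervals on ratios below cover counting error only.

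In mouse embryonic stem cells, LIF activates STAT3, which switches on Klf4 and Tfcp2l1, while WNT signalling relieves the repressor TCF7L1 from Esrrb, Klf2 and Tfcp2l1. The factors bind each other's genes together with OCT4 and SOX2, so that the network sustains itself, and it is taken down when cells pass to the formative and primed states. In serum and LIF the cells are known to be uneven, and cells with high and low Nanog, Zfp42 or Esrrb coexist in a culture. In bulk RNA, fewer cells with a transcript and less transcript per cell cannot be told apart.

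The promoter windows of the factors are shown because ZFP57 binds the hexamer TGCCGC when its CG is methylated, and the question is where such letters lie beside these genes. RefSeq windows (GRCm38.p6, 250 bases before to 50 bases after a start) were at hand for 7 of the 10 genes, counting Klf4, Esrrb and Nr0b1, which held none of the motifs searched. The hexamer, read on both strands, was in the windows of Nanog, Klf2 and Tfcp2l1 and in 11.6% of all 32851 windows. The octamer ATTTGCAT (found in 1.74% of all windows) and the KLF motif CCACACCC (3.56%) were both found in Zfp42 alone among the 7. The ESRRB motif AAGGTCA (4.72%) and the STAT3 motif TTCCNGGAA (1.15%) were found in none of the 7. Only exact matches were counted, so a site with a differing letter, such as ttttgcat in the Nanog window, was not marked. No motif overlapped another. Capitals mark the motifs in the sequences, which read 5′ to 3′ on the strand of the gene. The Nanog window (chr6:122707239-122707538, plus strand) and the Zfp42 window (chr8:43306960-43307259, minus strand) are given whole, followed by the stretch around the hexamer in Klf2 (chr8:72318997-72319056, plus strand) and in Tfcp2l1 (chr1:118627961-118627994, plus strand).
Nanog: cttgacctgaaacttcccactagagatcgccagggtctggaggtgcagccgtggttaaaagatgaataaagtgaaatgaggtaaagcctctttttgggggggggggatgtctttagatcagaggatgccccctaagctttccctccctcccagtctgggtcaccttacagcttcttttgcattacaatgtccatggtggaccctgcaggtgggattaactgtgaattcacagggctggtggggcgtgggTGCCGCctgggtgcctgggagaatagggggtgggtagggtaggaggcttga
Zfp42: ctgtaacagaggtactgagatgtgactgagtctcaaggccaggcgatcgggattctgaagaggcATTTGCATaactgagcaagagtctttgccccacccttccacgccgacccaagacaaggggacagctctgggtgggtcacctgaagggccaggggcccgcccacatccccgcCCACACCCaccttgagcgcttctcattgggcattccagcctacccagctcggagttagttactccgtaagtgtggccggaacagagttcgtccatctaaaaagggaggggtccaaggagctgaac
Klf2: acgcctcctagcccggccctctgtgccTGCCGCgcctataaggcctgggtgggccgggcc
Tfcp2l1: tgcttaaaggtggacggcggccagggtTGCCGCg
A match of letters is not a bound site, and methylation was not analysed here. The 3 genes with the hexamer did not differ alike in the knockouts. Nanog was lower in both lines, Klf2 was higher in E14 and lower in JB1, and Tfcp2l1 was lower in E14 and higher in JB1.

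The 4 libraries held between 26801865 and 66849394 reads in listed genes. Levels are given in RPM, reads per 1000000 reads of the library total that the authors scaled to. Where a pair of RPM values is given for a line, the wild type stands before the knockout. RPM values are not divided by gene length, so different genes are not ranked against each other. Zfp57 itself was 135 against 51.8 RPM in wild-type and knockout E14 and 796 against 42.9 RPM in JB1. That is 2.60-fold lower in the E14 knockout and 18.5-fold lower in the JB1 knockout, so transcript remained in both, and since the deleted part is not given, these levels check the labels only in part. The cells had the markers of embryonic stem cells, with Pou5f1 between 442 and 940 RPM and Sox2 between 154 and 625 RPM. Trophoblast markers summed to at most 3.58 RPM over 6 genes and fibroblast or feeder markers to at most 22.8 RPM over 9 genes, with Tpbpa and Dcn at 0 reads in every library.

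**Figure D1:**
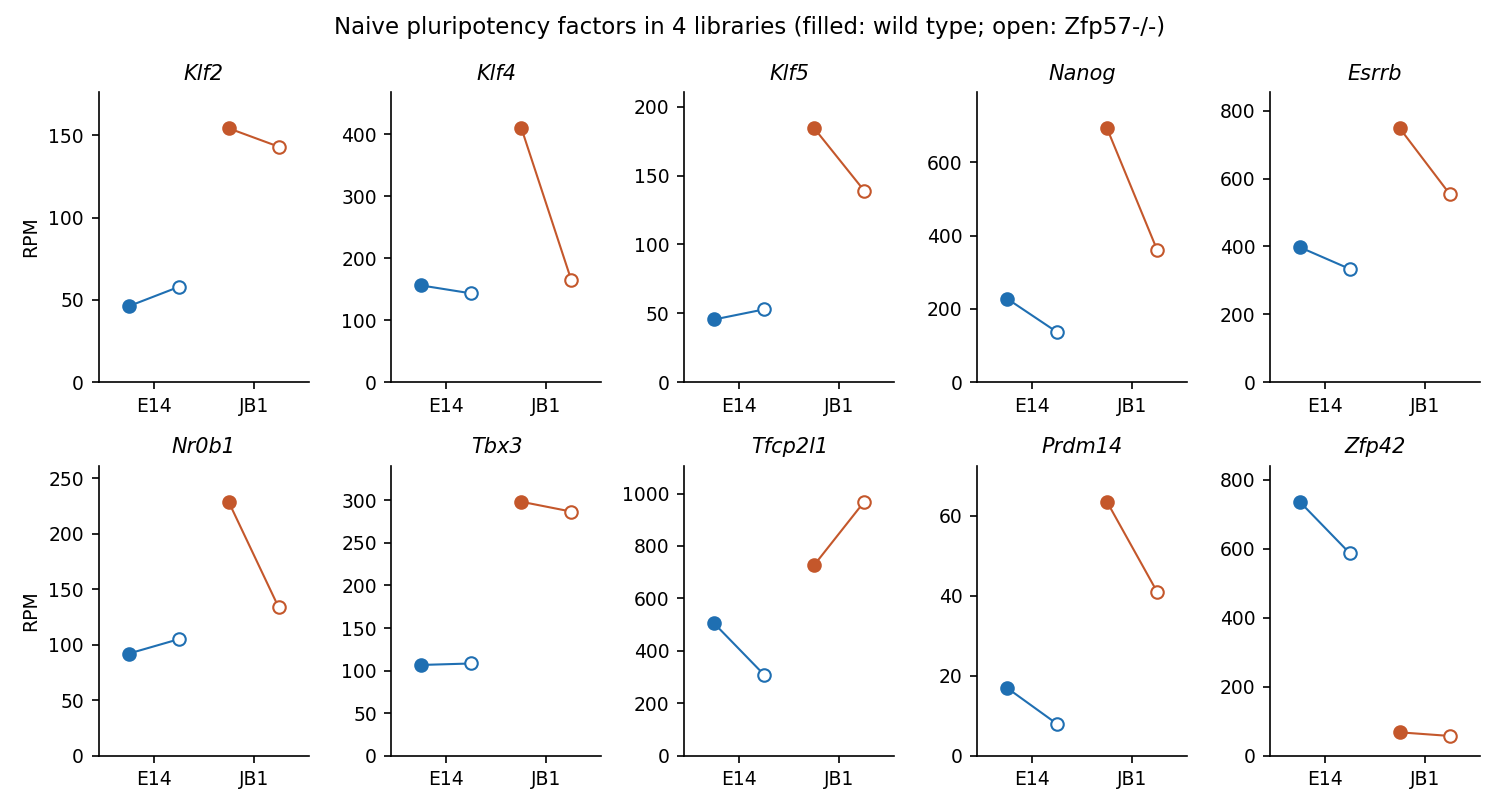
Level of each factor in RPM (vertical axes start at 0) in E14 and JB1, wild type as filled and Zfp57-/- as open points, 1 library per point, with a line joining the libraries of a line. Nanog, Klf4, Esrrb, Prdm14 and Zfp42 slope down in both lines, Tfcp2l1 slopes down in E14 and up in JB1, and Zfp42 is the gene with the lower levels in JB1.

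Across the group, levels in the knockout libraries tended to be lower, more so in JB1. In E14, 6 of 10 factors were lower in the knockout than in the wild type, where 46.5% of 12276 measured genes (at least 1 RPM in either library) were lower. In JB1, 9 of 10 were lower, against 48.5% of 13132 measured genes. The median difference of the factors, as log2((knockout RPM + 1)/(wild-type RPM + 1)), was −0.19 in E14 and −0.42 in JB1, while the median of all measured genes was 0.02 in E14 and 0.01 in JB1. The factors differed widely among themselves, with an SD over the 10 genes of 0.45 in E14 and 0.49 in JB1. Both lines showed Nanog, Klf4, Esrrb, Prdm14 and Zfp42 lower in the knockout, which is 5 of 10 factors against 27.4% of the 11890 genes measured in both lines. None of the 10 was higher in both lines, where 30.6% of these genes were. The other 5 went in opposite directions, against 42% of these genes.

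Differences of at least 2-fold were few. On the log2(RPM + 1) scale Prdm14 was the 1 factor at least 2-fold lower in the E14 knockout (0.269% of measured genes were) and none was at least 2-fold higher (0.953% were). In JB1, Klf4 was the 1 factor at least 2-fold lower (1.58% of measured genes) and again none was at least 2-fold higher (2.5%).

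**Figure D2:**
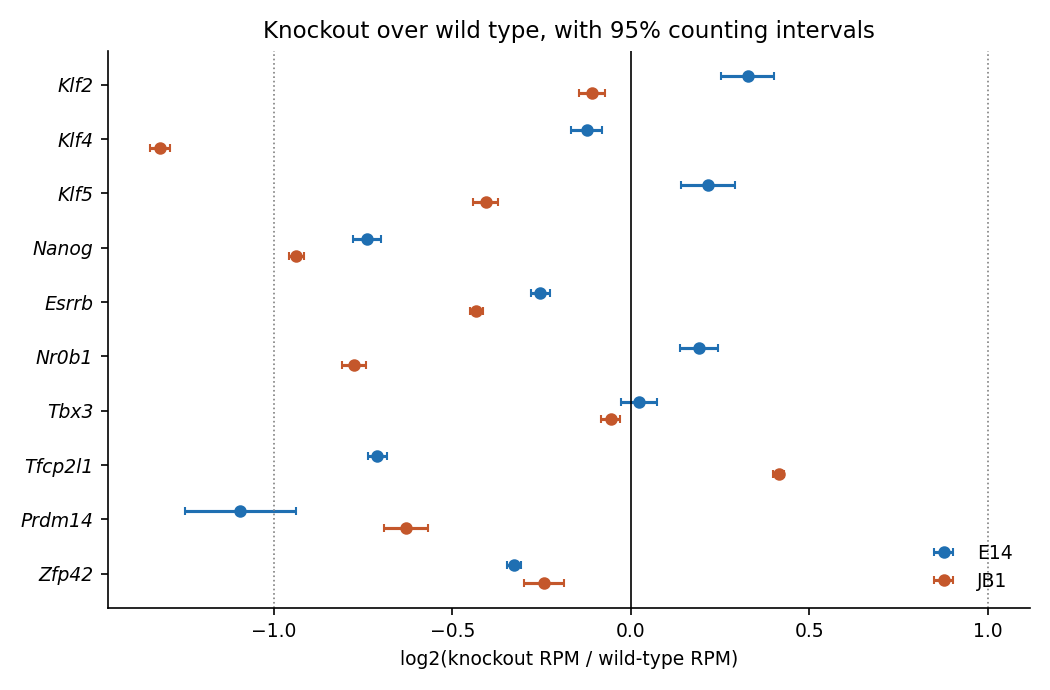
Ratio of knockout to wild-type RPM of each factor on a log2 axis, E14 in blue and JB1 in orange, with bars for the 95% counting interval and dotted lines at 2-fold. Klf4 in JB1 and Prdm14 in E14 lie beyond the 2-fold line, and Klf2, Klf5, Nr0b1, Tbx3 and Tfcp2l1 have their lines on opposite sides of 0.

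Among the KLF factors, zinc finger proteins that share target genes and can stand in for each other, Klf4 was the one with the steep difference, and in JB1. Klf4 (chromosome 4, 55540013 to 55545347, minus strand, mm9), a direct target of STAT3, was 156 RPM in wild-type E14, 143 in the E14 knockout, 410 in wild-type JB1 and 164 in the JB1 knockout. Wild-type JB1 thus stood apart from the other 3 libraries, which lay close together. The JB1 ratio was 2.50-fold lower (95% interval 2.45 to 2.55) and the E14 ratio 1.09-fold lower (1.06 to 1.12). In JB1, 0.640% of measured genes had a lower log2 difference than Klf4, and in E14 26.9% had.

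Klf2 and Klf5 differed less, and in opposite directions in the lines. Klf2 (chromosome 8, 74842932 to 74845555, plus strand), which depends on low MEK signalling, was 46.1 against 57.8 RPM in wild-type and knockout E14 and 154 against 143 RPM in JB1. Klf5 (chromosome 14, 99697910 to 99712624, plus strand), which limits entry into primitive endoderm, was 45.5 against 52.9 RPM in E14 and 184 against 139 RPM in JB1. For both genes the E14 libraries lay below the JB1 libraries whatever the genotype. In E14, Klf2 was 1.25-fold higher (1.19 to 1.32) and Klf5 1.16-fold higher (1.10 to 1.22). In JB1, Klf2 was 1.08-fold lower (1.05 to 1.11) and Klf5 1.33-fold lower (1.29 to 1.36).

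Nanog, the homeobox factor at the centre of the network, was lower in both knockouts. Nanog (chromosome 6, 122657507 to 122664651, plus strand) was 228 RPM in wild-type E14, 137 in the E14 knockout, 693 in wild-type JB1 and 362 in the JB1 knockout. Each knockout was below its own wild type, and both JB1 libraries were above both E14 libraries. The ratio was 1.67-fold lower in E14 (1.62 to 1.71) and 1.91-fold lower in JB1 (1.89 to 1.94). In E14 1.03% of measured genes had a lower log2 difference, and in JB1 2.00% had. The other genes of chromosome 6 at a mean of 5 RPM or more had a median log2 difference of −0.31 in E14 and 0.0040 in JB1. Nanog was −0.43 from this median in E14 and −0.94 from it in JB1. Mouse genomes carry processed copies of Nanog, none of which had a row of its own under that name in the tables, so its level is uncertain as far as such reads were counted to it.

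The nuclear receptor genes split. Esrrb (chromosome 12, 87702067 to 87862578, plus strand), an orphan receptor that can stand in for NANOG in sustaining self-renewal, was 398 against 334 RPM in wild-type and knockout E14 and 748 against 554 RPM in JB1. It was lower in both knockouts, 1.19-fold in E14 (1.17 to 1.21) and 1.35-fold in JB1 (1.33 to 1.37). Nr0b1 (chromosome X, 83437103 to 83441286, plus strand), which encodes DAX1, a receptor without a DNA-binding domain that binds OCT4, was 91.9 against 105 RPM in E14 and 229 against 134 RPM in JB1. It was 1.14-fold higher in the E14 knockout (1.10 to 1.18) and 1.71-fold lower in the JB1 knockout (1.67 to 1.75), where 3.27% of measured genes had a lower log2 difference.

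Tfcp2l1 and Tbx3 also differed from each other. Tfcp2l1 (chromosome 1, 120524522 to 120581744, plus strand), a grainyhead-like factor downstream of LIF and WNT, was 504 RPM in wild-type E14, 308 in the E14 knockout, 727 in wild-type JB1 and 969 in the JB1 knockout. The lowest and the highest of the 4 levels were thus the knockouts. The knockout was 1.64-fold lower in E14 (1.61 to 1.67), where 1.20% of measured genes had a lower log2 difference, and 1.33-fold higher in JB1 (1.32 to 1.35). Tbx3 (chromosome 5, 120120678 to 120134733, plus strand), a T-box factor that acts downstream of PI3K signalling, was 107 against 108 RPM in E14 and 298 against 287 RPM in JB1. Its ratio was 1.02-fold higher in E14 (0.981 to 1.05), an interval that includes equal levels, and 1.04-fold lower in JB1 (1.02 to 1.06). Gm2301, a gene listed on the minus strand that overlaps Tbx3, had at most 0.753 RPM.

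The remaining zinc finger factors were lower in both knockouts. Prdm14 (chromosome 1, 13103538 to 13117244, minus strand), which represses Dnmt3b and FGF receptor signalling in these cells, was 16.9 RPM in wild-type E14, 7.94 in the E14 knockout, 63.5 in wild-type JB1 and 41.0 in the JB1 knockout. It was 2.13-fold lower in E14, with a counting interval of 1.92 to 2.38 that spans 2-fold, and 1.55-fold lower in JB1 (1.48 to 1.62). These were the smallest counts of the group, down to 561 reads in the E14 knockout. Zfp42, which encodes REX1, a widely used marker of the naive state that is dispensable for it (chromosome 8, 44380422 to 44392363, minus strand), was 736 against 587 RPM in E14 and 67.6 against 57.2 RPM in JB1. It was 1.25-fold lower in E14 (1.24 to 1.27) and 1.18-fold lower in JB1 (1.14 to 1.23).

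**Figure D3:**
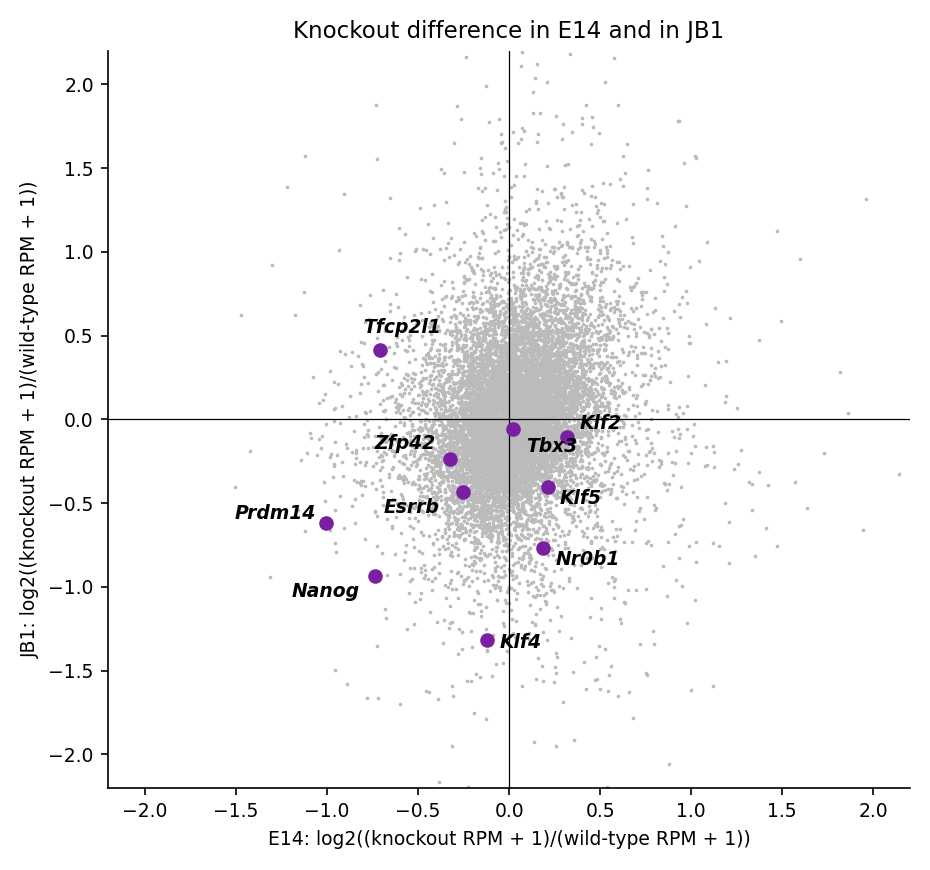
Knockout difference in E14 (horizontal) against JB1 (vertical) as log2((knockout RPM + 1)/(wild-type RPM + 1)), with the 10 factors in purple and 11870 of the 11890 genes measured in both lines in grey (20 lie outside the axes). Nanog and Prdm14 lie at the lower left edge of the cloud, Klf4 lies low in JB1 alone and Tfcp2l1 lies at the upper left.

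A genotype effect common to E14 and JB1 was estimated with limma on log2(RPM + 1), with line and genotype as terms, for the 12644 genes whose mean reached 1 RPM. Each genotype has the 2 lines as its replicates, so 1 residual degree of freedom remains for a gene. No gene passed a Benjamini-Hochberg adjusted p of 0.05 (0% of genes, 0 of 10 factors), and the lowest adjusted p of any gene was 0.623. Zfp57, the targeted gene, was not called either (shared log2 difference −2.77, SE 0.58, limma adjusted p = 0.623). An adjusted p above 0.05 in this fit therefore does not show that a gene was unchanged. At an unadjusted p under 0.05, 7.95% of all genes passed, as did 3 of the 10 factors, Nanog, Prdm14 and Klf4. The shared log2 difference of Nanog was −0.83 (SE 0.17, limma adjusted p = 0.623) and that of Prdm14 −0.81 (SE 0.18, limma adjusted p = 0.623), each lower in 2 of 2 lines. Klf4, also lower in 2 of 2 lines, had a shared difference of −0.72 (SE 0.28, limma adjusted p = 0.627). The other 7 factors had limma adjusted p between 0.641 and 0.981. Klf2 alone had a shared difference above 0 (0.11, SE 0.17). The chromosome-wide difference of chromosome 6 in E14 (median −0.31) was not taken out of the value of Nanog.

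Because whole chromosomes differed between the libraries, each factor was set beside the other genes of its chromosome with a mean of at least 5 RPM. Genes of chromosome 6, home of Nanog, had a median of −0.31 in E14, and 373 of 430 were below the wild type. Nanog, at −0.73, was −0.43 from that median, and 8 of the 430 genes had a lower difference. None of the 63 genes within 5 Mb was lower than Nanog in either line. In JB1 the chromosome 6 median was 0.0040, and 5 of the 430 genes were lower than Nanog. The contribution of the chromosome-wide difference to the E14 value of Nanog was not tested.

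Chromosome 14, home of Klf5, had a median of −0.30 in E14, where 250 of 337 genes were below the wild type. Klf5 stood above 304 of these 337 genes. Prdm14 and Tfcp2l1 both lie on chromosome 1, whose median in E14 was −0.0011 over 548 genes, of which 1 was lower than Prdm14 and 4 were lower than Tfcp2l1. In JB1 the chromosome 1 median was −0.14, Prdm14 was −0.48 from it and Tfcp2l1 was 0.56 above it. Genes within 5 Mb had JB1 medians nearer to 0, −0.035 around Prdm14 and 0.024 around Tfcp2l1. From these medians Prdm14 was −0.58 and Tfcp2l1 0.39. In JB1, 2 of 652 genes of chromosome 4 were lower than Klf4, and 12 of 323 genes of the X chromosome were lower than Nr0b1. The factors were thus spread over 8 chromosomes.

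**Figure D4:**
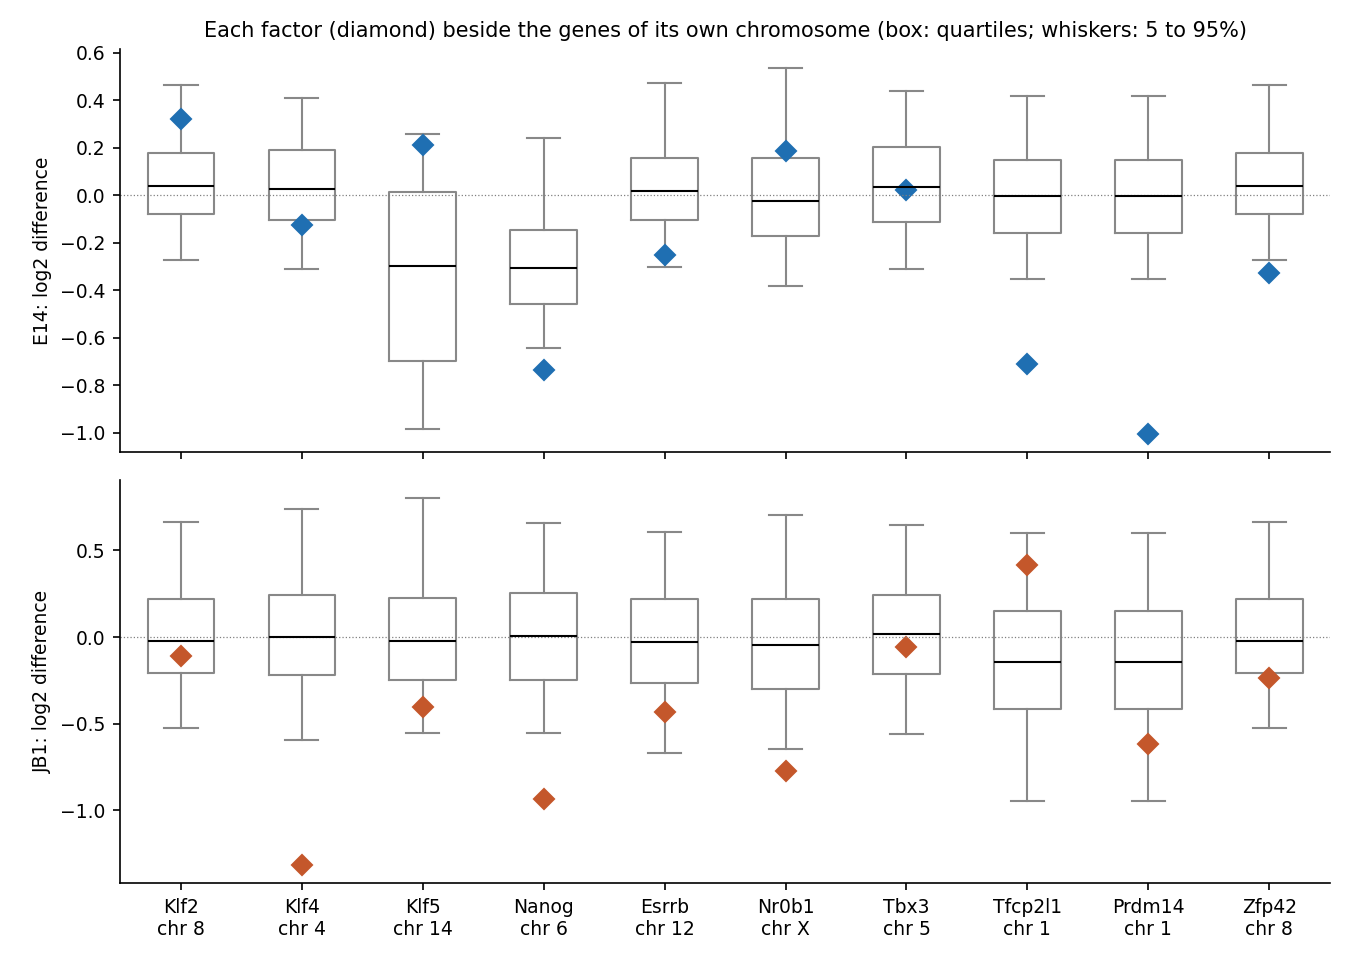
Log2 difference of each factor (diamond; E14 above, JB1 below) beside the other genes of its chromosome at a mean of 5 RPM or more, with boxes for the quartiles, a black line for the median and whiskers from the 5th to the 95th percentile. In E14 the box of chromosome 6 sits below 0, the median of chromosome 14 is below 0 at −0.30, Nanog lies under its whisker and Klf5 lies near the top of its own.

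The wild types themselves differed in most factors. In wild-type JB1, 9 of 10 factors were at a higher RPM than in wild-type E14, where 77.9% of 13003 genes were, and 7 of 10 were at least 2-fold higher, against 21% of these genes. The 7 were Nanog, Klf2, Klf4, Klf5, Tbx3, Prdm14 and Nr0b1, with RPM ratios between 2.49 for Nr0b1 and 4.05 for Klf5. Esrrb was 1.88-fold and Tfcp2l1 1.44-fold higher. Zfp42 went the other way, 10.9-fold lower in wild-type JB1, where 3.18% of genes were at least 2-fold lower. The knockouts kept this order for Zfp42, 10.3-fold lower in JB1. The tables were scaled separately, 53.1% of the total lay in listed genes in wild-type E14 and 68.6% in wild-type JB1, and the median gene was at a 0.49 higher log2 level in JB1. With reads divided by the total in listed genes, that median was 0.16 and 59.6% of 13788 genes were higher in JB1. On that scale 6 factors were at least 2-fold higher, against 12.92% of genes, and Zfp42 was 14.1-fold lower, where 6.33% of genes were at least 2-fold lower. With differences taken from the median of all genes, 4 factors were at least 2-fold higher, but the share of all genes on that scale was not counted. With 1 library per line, strain, line and library cannot be told apart.

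The order of the 4 levels took few forms. Nanog, Klf4, Esrrb and Prdm14 shared 1 order, rising from the E14 knockout through wild-type E14 and the JB1 knockout to wild-type JB1. Klf2, Klf5, Tbx3 and Nr0b1 shared another, with wild-type E14 lowest, then the E14 knockout, the JB1 knockout and wild-type JB1. Tfcp2l1 and Zfp42 had an order each of their own. Without replicates, whether neighbours in these orders differ beyond their spread was not measurable.

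Other genes of the naive network went in both directions. In the E14 knockout 8 of 17 were lower (46.5% of all measured genes were), with a median of 0.07. The 1 at least 2-fold lower was Tdh (0.269% of measured genes were). Tdh encodes the threonine dehydrogenase that mouse embryonic stem cells depend on, and it was 116 against 46.6 RPM in wild-type and knockout E14 and 136 against 259 RPM in JB1. It lies on chromosome 14, whose median in E14 was −0.30. In the JB1 knockout 11 of 17 were lower (48.5% of all measured genes were), with a median of −0.33. Of the 17, 4 were at least 2-fold lower (1.58% of measured genes were). Tet2, which oxidizes methylcytosine, was 563 against 237 RPM in JB1 and 300.4 against 239 RPM in E14. Fgf4, the growth factor that drives exit from the naive state, was 295 against 136 RPM in JB1 and 171 against 136 RPM in E14. The other 2 were the zinc finger gene Zfp296 (52.9 against 24.3 RPM in JB1, 14.96 against 23.7 RPM in E14) and the adhesion gene Jam2 (363 against 179 RPM in JB1, 207 against 244 RPM in E14), both higher in the E14 knockout. Gbx2, a homeobox gene induced by LIF, was the 1 gene at least 2-fold higher in JB1 (2.5% of measured genes were). It was 7.24 against 19.3 RPM in JB1 and 2.10 against 2.43 RPM in E14. Gdf3, a TGF-beta family ligand, was lower in both knockouts, at 72.2 against 53.2 RPM in E14 and 83.2 against 57.1 RPM in JB1. Like Nanog, Gdf3 lies on chromosome 6, whose median in E14 was −0.31. The contribution of the chromosome-wide differences to the E14 values of Tdh and Gdf3 was not tested. Lefty2, a NODAL inhibitor, was 2.32 against 3.41 RPM in E14 and 6.49 against 3.68 RPM in JB1. Manba, a lysosomal mannosidase gene, was 69.6 against 55.1 RPM in E14 and 119 against 233 RPM in JB1, so both of these went in opposite directions. No gene of these lists passed limma at an adjusted p of 0.05.

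Core pluripotency genes, which are shared by the naive and primed states, stayed nearer to equal levels. In E14 6 of 10 and in JB1 5 of 10 were lower, with medians of −0.06 and 0.01. Of all measured genes, 46.5% were lower in E14 and 48.5% in JB1. Pou5f1, which encodes OCT4, was 480 against 442 RPM in E14 and 925 against 940 RPM in JB1. Sox2, the partner of OCT4, was lower in both knockouts, 181 against 154 RPM in E14 and 625 against 393 RPM in JB1. Utf1, a chromatin-bound factor, was 61.4 against 170 RPM in JB1 and 7.92 against 7.75 RPM in E14. L1td1, which encodes an RNA-binding protein, was higher in both knockouts (217 against 270.3 RPM in E14, 299 against 422 RPM in JB1), and Sall4, a zinc finger partner of OCT4, was 280.4 against 346 RPM in E14 and 362 against 319 RPM in JB1.

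Upstream signalling genes had medians of −0.04 in E14 and 0.04 in JB1, with 7 of 12 and 3 of 12 lower and none beyond 2-fold. Of all measured genes, 46.5% and 48.5% were lower. At least 2-fold lower were 0.269% and 1.58%, and at least 2-fold higher 0.953% and 2.5%. Socs3, a feedback inhibitor that STAT3 induces, was higher in both knockouts, at 10.2 against 14.05 RPM in E14 and 53.3 against 91.98 RPM in JB1. Tcf7l1, the repressor of Esrrb, Klf2 and Tfcp2l1, was lower in both, at 7.71 against 6.61 RPM in E14 and 53.0 against 40.3 RPM in JB1. It lies on chromosome 6, whose median log2 difference in E14 was −0.31. The LIF receptor subunits went in opposite directions in the lines. Lifr was 142 against 185 RPM in E14 and 99.6 against 88.6 RPM in JB1, and Il6st was 47.9 against 44.0 RPM in E14 and 45.5 against 61.8 RPM in JB1. The kinase genes Pim1 (E14 59.5 against 53.2 RPM, JB1 91.3 against 94.95 RPM) and Pik3ca (E14 33.5 against 35.6 RPM, JB1 31.6 against 25.4 RPM) did so too. Stat3 itself was 80.5 against 94.3 RPM in E14 and 107 against 110.0 RPM in JB1.

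Of the formative and primed genes, 7 of 10 measured in E14 and 7 of 11 in JB1 were higher in the knockout, with medians of 0.16 and 0.56. Among all measured genes, 6571 of 12276 were higher in E14 and 6766 of 13132 in JB1. Pou3f1 in E14 and Fgf5 in JB1 reached 1 RPM in the knockout alone, so they could count only as higher. Sall2 in E14 did so in the wild type alone. None was at least 2-fold higher in E14 (0.953% of measured genes were) and 3 were in JB1 (2.5%). Dnmt3a and Dnmt3b, the de novo DNA methyltransferases, were 19.9 against 84.9 RPM and 61.4 against 145 RPM in JB1. In E14, Dnmt3a was 24.9 against 27.6 RPM and Dnmt3b 47.7 against 67.2 RPM. Tcf15, a factor of the passage to the primed state, was 2.31 against 8.77 RPM in JB1 and 3.59 against 3.13 RPM in E14. Otx2, which drives the formative state, was lower in both knockouts at low levels, 8.64 against 8.42 RPM in E14 and 2.80 against 2.06 RPM in JB1. It lies on chromosome 14, whose median log2 difference in E14 was −0.30. Nodal, a ligand of the primed state, was 59.0 against 65.5 RPM in E14 and 66.9 against 44.7 RPM in JB1. In E14, Pou3f1 (0.911 against 1.91 RPM) and Sall2 (1.01 against 0.934 RPM) were near the 1 RPM limit, and in JB1 they were 6.75 against 8.71 RPM and 5.77 against 4.70 RPM. The primed marker Fgf5 was at most 1.08 RPM and the mesoderm marker T at most 0.227 RPM.

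Regulators of naive exit had medians of 0.01 and 0.09, with 7 of 15 lower in E14 and 4 of 15 in JB1. The shares of all measured genes that were lower were 46.5% in E14 and 48.5% in JB1. Etv4, an ETS factor induced by FGF signalling, was the 1 of them beyond 2-fold, higher in JB1 (2.5% of measured genes were at least 2-fold higher). It was 42.8 against 137 RPM in JB1 and 26.5 against 25.8 RPM in E14. Fgfr2, a receptor for FGF, was lower in E14 (10.7 against 7.62 RPM) and higher in JB1 (11.4 against 17.2 RPM), and Fgfr1 was 25.0 against 28.9 RPM in E14 and 59.3 against 63.4 RPM in JB1. The folliculin partner genes were lower in both knockouts, Fnip2 at 84.6 against 64.1 RPM in E14 and 62.7 against 58.0 RPM in JB1, and Fnip1 at 122 against 111 RPM in E14 and 101 against 67.4 RPM in JB1. Mbd3, a NuRD subunit gene, was higher in both, at 37.9 against 49.0 RPM in E14 and 56.1 against 71.1 RPM in JB1.

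**Figure D5:**
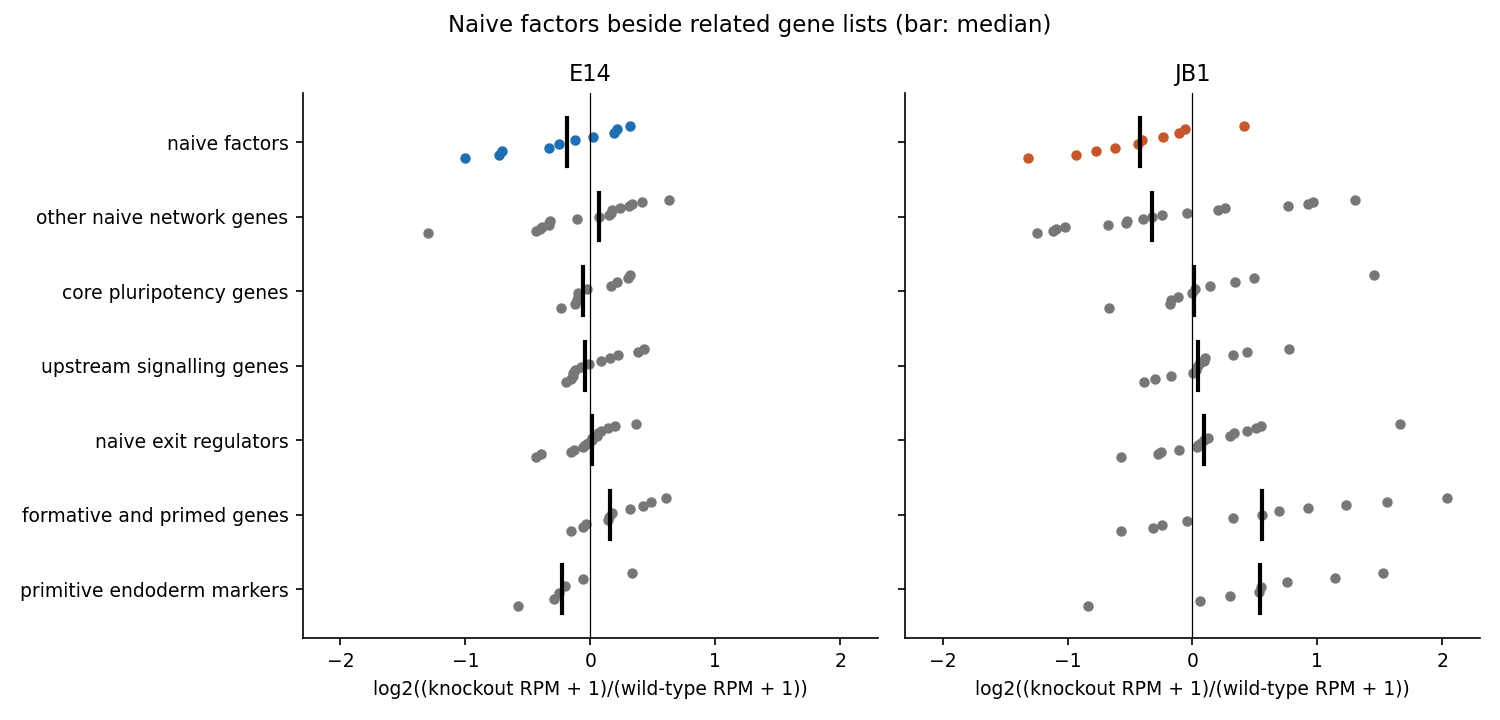
Log2 difference, log2((knockout RPM + 1)/(wild-type RPM + 1)), of each measured gene of 7 lists in E14 (left) and JB1 (right), 1 point per gene, with a black bar for the list's median. In JB1 the naive factors have a median of −0.42 and the formative and primed genes one of 0.56. The latter median includes Fgf5, which reached 1 RPM in the JB1 knockout alone, so the filter let it in only as higher.

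Markers of primitive endoderm, which can arise in these cultures, differed along with the factors in the JB1 comparison. Over 9 markers the sum was 18.4 against 16.3 RPM in wild-type and knockout E14 and 38.9 against 56.8 RPM in JB1. In JB1, 7 of 8 measured markers were higher in the knockout, with a median of 0.54, where 6766 of 13132 measured genes were higher. Hnf4a and Sox17 reached 1 RPM in JB1 in the knockout alone, so the filter let them count only as higher. Among the 7 were Dab2 (20.2 against 29.6 RPM) and Cubn (2.43 against 8.89 RPM), while Gata4 alone was below its wild type (6.10 against 2.97 RPM). In E14, 5 of 6 were lower, with a median of −0.22, where 46.5% of measured genes were lower. Gata6 (1.37 against 0.990 RPM) reached 1 RPM in E14 in the wild type alone, so it could count only as lower. Of the others named by the rule, Hnf4a was 0.405 against 2.09 RPM and Sox7 5.997 against 6.30 RPM in JB1. The defining factors were low in all libraries, Gata6 at no more than 2.31 RPM, Sox17 at no more than 1.25 RPM and Foxa2 at no more than 0.368 RPM. The part of such cells in the lower naive factors was not tested.

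Genes whose pair of differences lay nearest to those of Nanog, Klf4 and Prdm14 were searched among 6563 other genes with at least 10 RPM in every library, by Euclidean distance over the 2 lines. Nearest to Nanog were Rabggta (E14 −0.70, JB1 −0.80, distance 0.14) and Rb1 (−0.72 and −0.75, distance 0.18), both on chromosome 14, and Dstyk (distance 0.20). Nearest to Klf4 were Esrp1 (−0.09 and −1.29, distance 0.04), Hrk and Arhgef2, all within 0.07. Nearest to Prdm14 were Tnfrsf10b on chromosome 14 (−0.96 and −0.54, distance 0.09) and Hibadh on chromosome 6 (−0.90 and −0.65, distance 0.11). Atp8b2 came next (distance 0.13). A pair of values is a weak description of likeness.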

How the data were processed

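Stranded mRNA libraries of 4 groups, 1 library each, were grouped by their titles. The submitters' processing notes name build mm9, TopHat2 2.0.8b, cutadapt and CASAVA 1.8.2. For the counting tool, annotation, strand setting and treatment of reads with several matches, nothing was found in the labels or headers. Each line has a deposited table of log2 RPM. For 100% of genes above the lowest value, 0.9 × 2 to the power of the distance from the lowest value was whole within a relative 0.0001, which means 0.9 reads stood in for none, and reads and totals were recovered from the deposited log2 values. Genes at the lowest value were set to 0 RPM. At 1 RPM a gene had 50.5 to 97.0 reads.

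Differences were taken within each table on log2(RPM + 1), which understates changes of low genes. Ratios are of RPM, with exact conditional binomial 95% intervals that cover counting error only, since PCR copies cannot be told from separate molecules. The shared effect was fitted with limma 3.58.1 in R 4.3.3 (eBayes with a trend, Benjamini-Hochberg adjustment over all genes tested), checked on simulated data. limma was chosen because the values were deposited as logarithms. A model for counts was not run on the recovered reads. The genes and lists were chosen with earlier results of these data known. Apart from the 10 factors, each list was named by its 2 highest and 2 lowest genes per line, with other genes named for their role after their values were seen, and 1 gene that this rule names is not reported here. Coordinates of genes are those of the tables (mm9), and promoter windows come from RefSeq (GRCm38.p6), matched by symbol. Alternatives changed the pseudocount, filter, scale, centring, fold and eBayes settings. Protein sequences were not used here.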

Additional observations from a re-analysis of the deposited data

Results flagged for a closer look

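For 5 factors the single E14 comparison and the single JB1 comparison went in opposite directions, and none of these differences between lines could be tested. The log2 difference in JB1 minus that in E14 was 1.12 for Tfcp2l1, −0.96 for Nr0b1, −0.62 for Klf5, −0.43 for Klf2 and −0.080 for Tbx3. Among all genes measured in both lines, 42% went in opposite directions. For Tbx3 the E14 interval included equal levels.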

How the results depend on the processing

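Among the 10 factors, the number lower in the E14 knockout and in the JB1 knockout, the number lower in both lines, and the median differences kept their direction and stayed within 1.5 times the reported count, or within 1 SD over the factors for medians, under every alternative run (pseudocounts, filters, scales, centring, mean, without Nanog). The number at least 2-fold lower in E14 was 0 with a pseudocount of 5 RPM, and with 1.5-fold as the threshold it was 3 in E14 and 4 in JB1. The share of all measured genes at 1.5-fold was not counted. At a log2 difference of −0.576, just short of 1.5-fold, 2.39% of measured genes were lower in E14 and 6.80% in JB1. In wild-type JB1, 4 factors in place of 7 were at least 2-fold higher when differences were centred on the median of all genes, an alternative chosen after the values were seen. For that alternative the share of all genes was not counted. Tbx3 in E14 turned to −0.012 when centred on its chromosome and to −0.049 when centred on genes within 5 Mb. With 1 line left out there is no test. The shared difference of Klf2 became −0.11 with JB1 alone (0.32 with E14 alone), that of Klf5 0.21 with E14 alone (−0.40 with JB1 alone), that of Tbx3 0.023 (−0.057), that of Nr0b1 0.19 (−0.77), and that of Tfcp2l1 0.41 with JB1 alone (−0.71 with E14 alone). limma called 0 genes under all 8 other settings, with between 799 and 1688 genes at an unadjusted p under 0.05 and a lowest adjusted p between 0.563 and 0.667. Of the 10 factors 3 had an unadjusted p under 0.05 in 6 of these settings, and 2 had one without a trend and with robust eBayes. With 1 library per group the spread between libraries is not known, and depth limits the call of Prdm14 at 2-fold in E14 and the direction of Tbx3 in E14.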

Other observations

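Genes of the 2-cell-like state, a rare state in these cultures, were at low levels. Zscan4c was 6.28 against 8.98 RPM in wild-type and knockout E14 and 0.925 against 2.53 RPM in JB1, and Zscan4d was 3.45 against 5.76 RPM in E14 and 0.723 against 1.57 RPM in JB1. Both were higher in both knockouts, while Zfp352 was higher in E14 (0.475 against 1.06 RPM) and lower in JB1 (1.24 against 0.505 RPM). Near-identical copies of Zscan4 can share reads, so these levels are uncertain. Among fibroblast or feeder markers, Fbn1 was 13.96 against 5.99 RPM and Pdgfrb 1.43 against 5.73 RPM in JB1, Twist1 was 3.40 against 0.814 RPM in JB1, and Lum had no read in E14 and wild-type JB1.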
